A study of Mus musculus with 42 samples.

Results

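The genes examined here are 10 that define macrophage identity or are used to recognise the cell: the transcription factor genes Spi1, Cebpa, Cebpb, Cebpd, Runx1 and Fli1, the growth factor receptor gene Csf1r, and the surface molecule genes Cx3cr1, Adgre1 and Itgam. They were taken by symbol, not by any measured value, from 21818 protein-coding genes of the mouse assembly GRCm38 (mm10), and all 10 were found. Chromatin immunoprecipitation with sequencing (ChIP-seq) was read at them for RNA polymerase II (Pol II) and for acetylated lysine 27 of histone H3 (H3K27ac). Of the 65218 H3K27ac regions obtained by merging all libraries, 100 lay within 50 kb of a member's start.

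The cells were bone marrow-derived macrophages of male C57Bl6/J mice aged 6 to 12 weeks, grown for 7 days in 15% L929-conditioned medium, which supplies the growth factor M-CSF. They were wild type (WT) or lacked the nuclear receptor Nur77, encoded by Nr4a1 (KO), and were left untreated (0 h) or given 100 ng/ml of lipopolysaccharide (LPS), a bacterial ligand of Toll-like receptor 4, for 1 or 18 h. For each of the 6 groups there were 3 libraries per antibody and 1 input without antibody. The knockout was whole-body, made with a CMV promoter-driven Cre that was bred out afterwards according to the study's methods, although the genotype label of the KO libraries names Cre, so a part of Cre cannot be told apart from that of the deletion. Nothing in the labels says that replicates came from separate animals, so the p-values measure only the spread between these libraries.

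PU.1, the product of Spi1, is an ETS-family factor that opens the enhancers of macrophages together with C/EBP proteins, which bind as dimers and are encoded here by Cebpa, Cebpb and Cebpd. Runx1 is a runt-domain factor of blood cell formation and Fli1 another ETS factor of blood and endothelium, while Csf1r encodes the receptor for M-CSF, on which these cells depend for survival. Adgre1 and Itgam encode F4/80 and CD11b, the antigens by which macrophages are recognised in flow cytometry, and Cx3cr1 encodes the receptor for the chemokine fractalkine. Pol II ChIP-seq shows how much polymerase sits on a gene, and H3K27ac marks active promoters and enhancers.

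On the GRCm38 assembly the coding transcripts used were at chromosome 2, positions 91096096 to 91115756, for Spi1, and at chromosome 2, positions 167688915 to 167690418, for Cebpb. Cebpa lay at chromosome 7, positions 35119303 to 35121928, Cebpd at chromosome 16, positions 15887286 to 15891031, and Runx1 at chromosome 16, positions 92601466 to 92826149 on the minus strand. Fli1 lay at chromosome 9, positions 32422204 to 32541595, and Cx3cr1 at chromosome 9, positions 120048683 to 120068296, both on the minus strand. Csf1r lay at chromosome 18, positions 61105572 to 61131134, Adgre1 at chromosome 17, positions 57358691 to 57483527, and Itgam at chromosome 7, positions 128062669 to 128118490. Reads cannot be assigned to one gene where models overlap, and the windows of Csf1r, Cebpd and Itgam also touch Hmgxb3, Spidr and Gm49368. All values below are normalized tags, that is tags in enriched regions per 10 M tags of the library (M, mega); a 0 says that no region passed the authors' search, not that no read was there.

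Pol II libraries held 21.7 to 36.1 M tags and H3K27ac libraries 13.5 to 55.4 M, with KO the deeper in H3K27ac (23.6 to 55.4 M against 13.5 to 31.1 M in WT). The targeted gene Nr4a1 held 150, 144 and 157 normalized tags of Pol II in WT at 0 h and 73.1, 60.1 and 56.2 in KO (log2 difference −1.14 ± 0.14, adjusted p = 3.5e-05 by limma). At 1 h Nr4a1 held 23.5, 23 and 22.4 in WT and 23.5, 39.0 and 25.8 in KO (0.24, adjusted p = 0.18), at 18 h all 6 libraries listed it at 0, and H3K27ac at its start did not pass at 0 h (−0.51, adjusted p = 0.55). The labels are thus checked by Pol II at 0 h and not by the later times. The KO H3K27ac libraries of replicate 1 at 1 h and at 18 h stood apart. At 1 h that library correlated with the other KO libraries at r = 0.942 to 0.944 across gene starts and with the WT libraries of the same time at 0.981 to 0.983, and at 18 h it correlated with the other KO libraries at 0.949, whereas r within the other 4 groups was 0.987 to 0.995. Most counts on H3K27ac are therefore given with and without these 2 libraries, while the changes of single named regions use all libraries unless a replicate is said to be left out. Pol II lay on all 8 of 8 macrophage markers in all 18 libraries (sum 6757 to 21263 normalized tags, against 53.8 to 1445 in inputs), and S100a9, Ly6g, Elane and Mpo of neutrophils, Pax5 and Ebf1 of B cells and Cd3e, Cd3g and Cd8a of T cells were at 0 in all of them. The other 2 of the 5 T cell markers held Pol II in all 18 libraries (sum of the list 75.2 to 172, against 0 to 49.9 in inputs), and the B cell list summed to 41.4 to 161 (22.9 to 153 in inputs). The neutrophil list reached at most 52.6 (57.6 in inputs). The summed markers of mast cells were at 0, and those of erythroid cells and fibroblasts reached at most 31.7 and 6.21. The 4 dendritic cell markers summed to 1115 to 1349 at 1 h against 248 to 316 at 0 h, with Siglech at 0. At 1 h only 1 of the 4 held Pol II in all 3 libraries of each genotype, against 3 at 0 h. Flt3 in WT and Zbtb46 in KO were then at 0. At 18 h the list summed to 370 to 444 in WT and 392 to 954 in KO. The part of these cell types in the results was not tested. In such bulk material fewer cells of a type and less signal per cell cannot be told apart.

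Before LPS, the members carried very different amounts of Pol II. Per kb of gene window, the WT libraries at 0 h held 145 to 172 normalized tags on Csf1r, the highest of the 10. Cebpb followed with 98.7 to 124 and Spi1 with 94.2 to 144, 2 ranges that overlapped. Cebpa (85.2 to 91.4) and Cebpd (83.7 to 91.2) could not be put in order either. Itgam held 38.2 to 44.4 per kb, Adgre1 32.8 to 40.5, Runx1 27.8 to 32.9 and Fli1 26.6 to 31.8, with each range overlapping the next. Cx3cr1 held only 1.68 to 2.22 per kb. The short genes lay inside Pol II regions longer than themselves: for Spi1, Cebpa, Cebpb and Cebpd all of the value came, in every library, from regions that reached outside the window, so their values are means over a wider stretch. For Csf1r that share was 96.1 to 100%. Its median over the libraries was 85.3% for Runx1, 66.6% for Itgam, 62.2% for Adgre1, 26.4% for Fli1 and 0% for Cx3cr1.

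**Figure D1:**
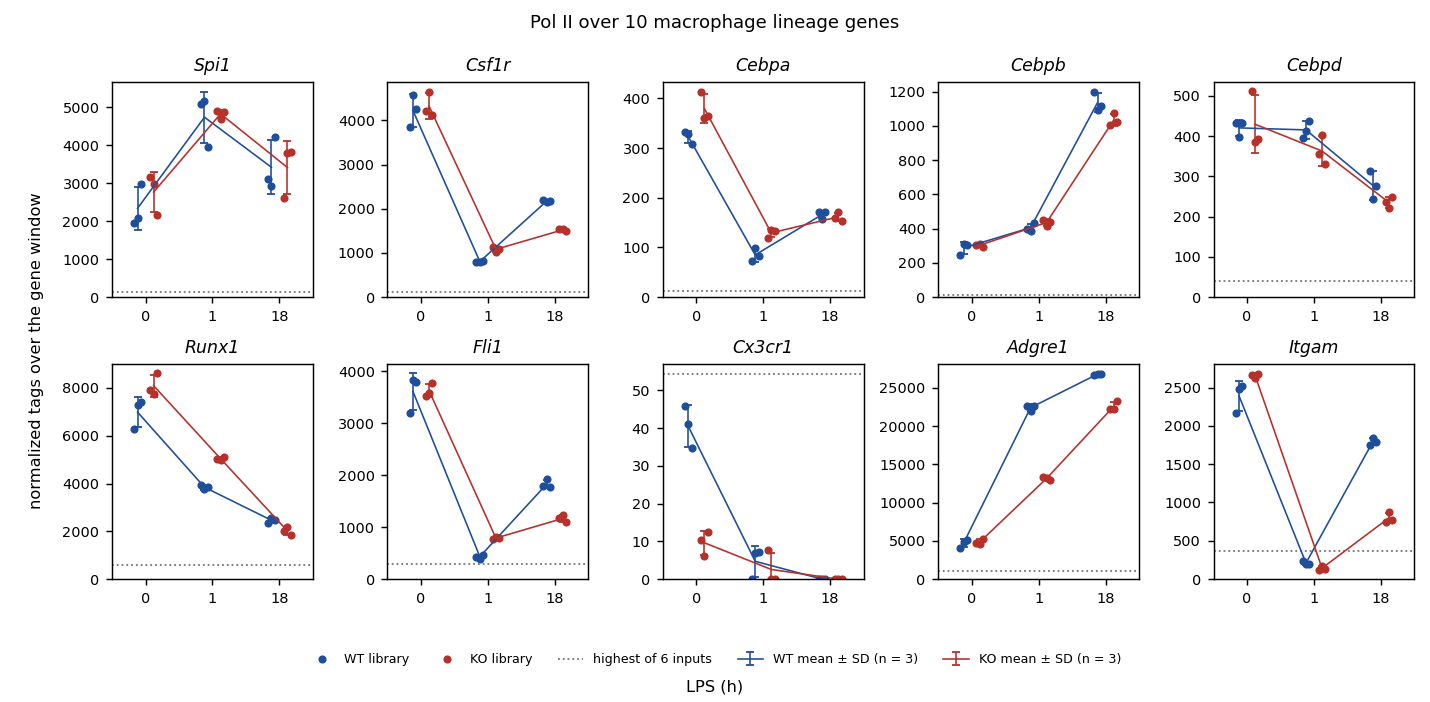
Normalized tags of Pol II over each of the 10 genes (y axis, from 500 bp before the start to 500 bp past the end; scales differ between panels) at 0, 1 and 18 h of LPS (x axis, evenly spaced). Points are single libraries, lines join the means ± SD of 3 WT (blue) or 3 KO (red) libraries, and the dotted line is the highest of the 6 inputs. Fli1, Csf1r and Itgam dipped at 1 h and were partly restored at 18 h, less so in KO, while Adgre1 rose in both genotypes and rose less in KO.

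Pol II on Spi1 rose with LPS and did not pass the test for genotype at any time. In WT it stood at 1947, 2094 and 2982 normalized tags at 0 h, 5087, 5174 and 3962 at 1 h, then 3121, 2916 and 4232 after 18 h. In KO it stood at 3168, 2975 and 2161, then 4907, 4705 and 4878, then 2620, 3805 and 3822. The 1 h libraries lay above all those at 0 h in both genotypes, whereas those at 18 h overlapped them. The log2 change at 1 h was 1.03 ± 0.19 (SE, adjusted p = 5.8e-05 by limma) in WT and 0.82 ± 0.19 (adjusted p = 0.0006) in KO, and at 18 h in WT it was 0.55 ± 0.19 (adjusted p = 0.015). That last call was lost without replicate 1 (adjusted p = 0.078) or 2 (0.07), and with quantile normalization both calls at 1 h were lost (0.13 in WT and 0.26 in KO). The KO minus WT difference was 0.25, 0.04 and −0.01 at 0, 1 and 18 h, with 95% intervals of −0.14 to 0.64, −0.35 to 0.42 and −0.39 to 0.38. Without replicate 3 the difference at 0 h became 0.60 and passed (adjusted p = 0.037).

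The 3 C/EBP genes moved in 3 different ways. Cebpa, whose factor drives commitment to the myeloid lineage, lost Pol II on LPS. Its WT libraries held 332, 329 and 309 normalized tags at 0 h, 72.1, 99.6 and 83.4 at 1 h, then 171, 158 and 171 after 18 h, and its KO libraries 414, 361 and 365, then 119, 135 and 133, then 160, 171 and 154. No library at 1 or 18 h reached any at 0 h. The log2 change at 1 h was −1.82 ± 0.10 in WT against −1.48 ± 0.10 in KO (adjusted p = 1.9e-11 and 3.8e-10), and at 18 h −0.92 and −1.18. At 1 h all 3 KO libraries exceeded all 3 of WT, by 0.56 ± 0.10 (adjusted p = 0.00041). This call was lost with quantile normalization (0.25, adjusted p = 0.098) and within 500 bp of the start (0.02, adjusted p = 0.95). The interaction of genotype with LPS, obtained by subtracting the WT response from the KO response, missed the threshold for Cebpa at 1 h (0.34, adjusted p = 0.12).

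Cebpb, the C/EBP gene of inflammatory and acute-phase responses, gained Pol II. In WT it held 247, 310 and 306 normalized tags at 0 h, 400, 384 and 432 at 1 h, then 1199, 1094 and 1113 after 18 h. In KO it held 305, 311 and 291, then 452, 416 and 440, then 1006, 1072 and 1020. Each later time lay above the earlier one in every library, with log2 changes at 18 h of 1.95 ± 0.08 in WT and 1.74 ± 0.08 in KO (adjusted p = 7.5e-13 and 2.9e-12), a 3.86-fold and a 3.34-fold rise. KO and WT differed by 0.08, 0.10 and −0.13 at 0, 1 and 18 h, none past the threshold (95% intervals −0.10 to 0.25, −0.07 to 0.28 and −0.31 to 0.04).

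Cebpd, a gene known for rapid induction in inflammation, held 432, 397 and 433 normalized tags of Pol II in WT at 0 h, 395, 414 and 438 at 1 h, then 314, 243 and 275 after 18 h. Its KO libraries held 512, 385 and 392, then 355, 404 and 331, then 236, 221 and 249. It fell at 18 h in both genotypes (−0.59 ± 0.11 in WT, adjusted p = 0.00019, and −0.83 ± 0.11 in KO, adjusted p = 4e-06). At 1 h its change was −0.02 in WT (adjusted p = 0.89) and −0.23 in KO (0.069). The fall in KO passed with inputs subtracted (−0.31, adjusted p = 0.03) and without replicate 2 (−0.38, adjusted p = 0.023). The direction depends on the scale: the median log2 change of all genes at 1 h was −0.81 in WT against −0.61 in KO, and with each library centred on its median Cebpd was at 0.77 in WT and 0.32 in KO, both past the threshold, and KO was then called lower than WT at 1 h (−0.45, adjusted p = 0.0083).

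The promoters of Cebpa and Cebpb are printed because these neighbours in function moved in opposite directions. Each line is the 250 bases before the transcript start that RefSeq gives on GRCm38.p6, 5′ to 3′ on the gene's strand, with Cebpa at chr7:35119043-35119292 and Cebpb at chr2:167688665-167688914, both on the plus strand. Capitals mark the letters of the only motif found.
Cebpa: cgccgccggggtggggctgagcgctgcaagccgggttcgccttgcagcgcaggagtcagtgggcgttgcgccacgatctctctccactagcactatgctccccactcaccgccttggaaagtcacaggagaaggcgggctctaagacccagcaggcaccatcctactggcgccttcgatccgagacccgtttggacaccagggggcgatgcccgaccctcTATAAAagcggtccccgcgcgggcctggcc
Cebpb: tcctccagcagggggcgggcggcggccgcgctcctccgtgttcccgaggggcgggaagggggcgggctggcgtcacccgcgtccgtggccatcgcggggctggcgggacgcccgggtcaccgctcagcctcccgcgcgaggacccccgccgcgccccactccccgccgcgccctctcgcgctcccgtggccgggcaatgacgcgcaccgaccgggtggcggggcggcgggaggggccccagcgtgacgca
The Cebpa stretch holds TATAAA at positions −30 to −25 from the start, a string that 12.4% of all 32851 promoters in the RefSeq table hold on either strand, and it is 66.4% G or C. The Cebpb stretch is 81.6% G or C, against a median of 52.4% over all promoters. Searched on both strands, neither holds AGGAAGT (a PU.1 string, in 7.69% of all promoters), TTGCNNAA (C/EBP, 9.56%), TGTGGTT (RUNX, 4.40%), TGANTCA (AP-1, 6.75%), GGANTTTCC (NF-kB, 1.07%), AAAGGTCA (the NBRE that Nur77 can bind, 1.34%) or TGACGTCA (CRE, 1.55%). The 4 promoters found for Itgam, Cx3cr1 and Runx1 hold none of the 8 strings, TATAAA included, which says only that these letters are not in those windows. The table had entries for 5 of the 10 genes.

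Runx1 lost Pol II step by step with time. WT libraries held 6281, 7266 and 7419 normalized tags at 0 h, 3945, 3752 and 3838 at 1 h, then 2347, 2562 and 2480 after 18 h. KO libraries held 7908, 7754 and 8620, then 5031, 4993 and 5100, then 1997, 2190 and 1857. The 3 times did not overlap within either genotype, and the change at 18 h was −1.50 ± 0.07 in WT against −2.003 ± 0.07 in KO (adjusted p = 1.9e-12 and 2.4e-14). At 1 h it was −0.86 in WT and −0.68 in KO, close to the shift of all genes, and after median centring the WT change was −0.07 (adjusted p = 0.18). KO lay above WT at 1 h by 0.39 ± 0.07 (adjusted p = 0.00024) and below it at 18 h by 0.29 on the log2 scale (−0.29 ± 0.07, adjusted p = 0.0052). For the interaction at 18 h limma gave −0.51 ± 0.10 (adjusted p = 0.0019). Both 18 h calls were lost without replicate 3 (adjusted p = 0.11 and 0.051) and with inputs subtracted, where the KO minus WT difference turned to 0.09 (adjusted p = 0.4) and the interaction was −0.11 (0.47). The KO input at 18 h held far fewer tags in regions than the others, for example 71.7 over Adgre1 against 229.6 to 1017.

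Runx1 has a distal and a proximal start, 2 promoters about which RefSeq has separate entries, and the windows used here begin at the distal one. The distal stretch at chr16:92826075-92826324 and the proximal one at chr16:92697330-92697579, both on the minus strand of GRCm38.p6, are printed to show how unlike they are, at 45.6% and 67.6% G or C. No letter is in capitals, since none of the 8 strings was found.
Runx1 distal: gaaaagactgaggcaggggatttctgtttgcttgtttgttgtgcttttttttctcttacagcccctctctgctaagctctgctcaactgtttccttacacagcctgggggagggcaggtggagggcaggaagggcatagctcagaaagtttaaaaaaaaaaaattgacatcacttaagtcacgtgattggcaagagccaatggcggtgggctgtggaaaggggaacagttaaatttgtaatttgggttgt
Runx1 proximal: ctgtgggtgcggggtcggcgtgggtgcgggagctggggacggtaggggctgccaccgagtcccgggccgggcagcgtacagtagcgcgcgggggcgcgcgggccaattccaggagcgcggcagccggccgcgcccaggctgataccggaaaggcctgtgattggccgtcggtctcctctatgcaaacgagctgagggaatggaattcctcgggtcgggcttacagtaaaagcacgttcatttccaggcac
At 0 h a single Pol II region of 229 to 230.2 kb covered the whole of Runx1, both starts included, in all 6 libraries. At 1 h the region at the distal start was 3.65 to 7.92 kb long and at 18 h 7.02 to 8.68 kb.

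Fli1 had the largest difference between genotypes among the factor genes. Its Pol II stood at 3201, 3834 and 3798 normalized tags in WT at 0 h and at 3528, 3583 and 3770 in KO, overlapping ranges. At 1 h it stood at 428, 396 and 471 in WT and at 763, 815 and 789 in KO. At 18 h the order was turned, with 1784, 1928 and 1775 in WT and 1181, 1231 and 1089 in KO. At neither time did the genotypes overlap. The change at 1 h was −3.03 ± 0.08 in WT, an 8.19-fold loss, and −2.19 ± 0.08 in KO, a 4.55-fold loss (adjusted p = 2.8e-16 and 2.9e-14). KO exceeded WT by 0.86 ± 0.08 at 1 h (adjusted p = 2.6e-07) and lay below it at 18 h (−0.64 ± 0.08, adjusted p = 1.1e-05). The interaction was 0.85 ± 0.11 at 1 h (adjusted p = 6.7e-05) and −0.65 ± 0.11 at 18 h (0.00064), and both held without any one replicate, with inputs subtracted and with the libraries centred on their medians, but not within 500 bp of the start (0.51 and −0.14, adjusted p = 0.21 and 0.82).

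Over the gene, Csf1r moved in the same directions as Fli1. In WT its Pol II stood at 3841, 4570 and 4267 normalized tags at 0 h, 800, 799 and 819 at 1 h, then 2203, 2162 and 2166 after 18 h. In KO it stood at 4214, 4654 and 4116, then 1130, 1031 and 1088, then 1541, 1546 and 1487. Receptor gene occupancy was thus higher in all KO than in all WT libraries at 1 h, and lower in all of them at 18 h. The loss at 1 h was 5.18-fold in WT and 3.97-fold in KO (log2 −2.37 ± 0.06 and −1.99 ± 0.06, adjusted p = 5e-16 and 6.2e-15). The KO minus WT difference was 0.42 ± 0.06 at 1 h (adjusted p = 6.6e-05) and −0.51 ± 0.06 at 18 h (1.5e-05). For the interaction at 18 h limma gave −0.55 ± 0.09 (adjusted p = 0.00051). That at 1 h, 0.38 ± 0.09 (adjusted p = 0.0073), was lost without replicate 2 (0.058) or 3 (0.13) and after median centring (0.14, adjusted p = 0.2). Within 500 bp of the start the difference at 1 h turned to −0.16 (adjusted p = 0.21), and the interactions were −0.20 at 1 h (0.46) and −0.48 at 18 h (0.066).

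Adgre1 was the surface gene that gained Pol II. WT libraries rose from 4132, 4900 and 5102 normalized tags at 0 h to 22677, 21922 and 22655 at 1 h, then 26688, 26836 and 26869 after 18 h. KO libraries rose from 4695, 4561 and 5282 to 13349, 13160 and 13009 and then to 22244, 22181 and 23288. The genotypes overlapped only at 0 h, and at 1 h every WT library was far above every KO library. The rise at 1 h was 4.77-fold in WT (log2 2.25 ± 0.06) and 2.72-fold in KO (1.44 ± 0.06), with adjusted p = 1.2e-15 and 6.6e-13. KO lay below WT at 1 h (−0.77 ± 0.06, adjusted p = 7.1e-08) and at 18 h (−0.25 ± 0.06, adjusted p = 0.0098). For the interaction the value at 1 h was −0.81 ± 0.09 (adjusted p = 1.5e-05) and that at 18 h −0.29 ± 0.09 (0.04). Within 500 bp of the start the one at 1 h was only −0.17 (adjusted p = 0.29). The interaction at 18 h was lost without any single replicate (adjusted p = 0.19, 0.15 and 0.11 without 1, 2 and 3) and the 18 h difference without replicate 2 (0.14) or after median centring (0.096) or quantile normalization (0.13).

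Itgam showed the deepest loss of the well-occupied members. WT libraries held 2172, 2481 and 2523 normalized tags at 0 h, 231, 202 and 195 at 1 h, then 1749, 1843 and 1793 after 18 h. KO libraries held 2667, 2625 and 2679, then 125, 168 and 136, then 745, 877 and 776. At 18 h the WT libraries had regained most of their starting value and the KO libraries had not. The KO minus WT difference was −1.16 ± 0.10 at 18 h, a 2.24-fold lower value in KO (adjusted p = 1.2e-07), and −0.52 ± 0.10 at 1 h (0.0004). All 6 libraries at 1 h were at or under the highest input (372), so the fold of the loss there (log2 −3.45 in WT and −4.13 in KO) is set against background. The interaction at 18 h was −1.31 ± 0.14 (adjusted p = 5.4e-06) and held without any one replicate. The one at 1 h was −0.68 ± 0.14 (adjusted p = 0.0028) and was lost without replicate 1 (0.053) and with inputs subtracted (−0.14, adjusted p = 0.36).

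Cx3cr1 was hardly occupied. Its WT libraries held 45.8, 41 and 34.6 normalized tags of Pol II at 0 h and its KO libraries 10.3, 6.11 and 12.5. At 1 h they held 0, 6.9 and 7.25 in WT and 7.68, 0 and 0 in KO, and after 18 h all 6 libraries listed it at 0. Every one of the 18 values was at or under the highest input, 54.3. The lower value in KO at 0 h passed the test (−1.37 ± 0.23, adjusted p = 0.00079) but not with a pseudocount of 1 (adjusted p = 0.19).

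Counted over the members, most were called under LPS. So were most of all genes tested in WT, with 11205 of 12977 at 1 h and 8681 of 13104 at 18 h. At 1 h in WT 3 of 10 rose and 6 fell, against 18.6% of all tested genes that rose and 67.8% that fell, and in KO again 3 rose and 6 fell (20.8% and 61.4%). At 18 h in WT 3 rose and 7 fell (33.1% and 33.2%), and in KO 2 rose and 7 fell (28% and 41.6%). Between genotypes, 1 of 10 was called lower in KO at 0 h and none higher (2.68% lower and 4.08% higher of all genes tested). At 1 h 4 were higher in KO, namely Cebpa, Runx1, Fli1 and Csf1r, and 2 lower, Adgre1 and Itgam (36.8% and 7.42%). At 18 h none of the 9 tested was higher in KO and 5 were lower, namely Runx1, Fli1, Csf1r, Adgre1 and Itgam (7.2% and 12.6%). The median KO minus WT difference of all genes was 0.24 at 1 h and −0.10 at 18 h, so the higher values at 1 h ran with a shift of most genes, and relative to that median they were 0.32 for Cebpa, 0.15 for Runx1, 0.62 for Fli1 and 0.18 for Csf1r. The interaction at 1 h was called higher for 3 members and lower for 2 (13.5% and 4.08% of all genes), and at 18 h higher for 1 and lower for 5 (4.67% and 9.33%). The interactions called for Cx3cr1, and that of Itgam at 1 h, rest on values at or under the highest input. With libraries centred on their medians, the interactions at 1 h left were those of Fli1 (0.61), Adgre1 (−1.05) and Itgam (−0.92).

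At Fli1, Itgam and Runx1 the values moved together with how much of the gene lay in Pol II regions, whereas at Adgre1, also a long gene, they did not. Of the Fli1 window 97.4 to 99.6% lay in regions at 0 h in the 6 libraries. At 1 h this was 14.7 to 19.0% in WT and 28.7 to 32.7% in KO, and at 18 h 70.9 to 85.4% in WT and 40.9 to 51.5% in KO. Itgam went from 98.6 to 100% at 0 h to 12.4 to 15.5% in WT and 8.41 to 12.1% in KO at 1 h, and then to 97.0 to 98.3% in WT and 53.8 to 72.9% in KO. In both genes the covered share thus did not overlap between genotypes at either time after LPS. Runx1 was covered whole at 0 h, to 72.3 to 75.3% in WT and 91.8 to 93.8% in KO at 1 h, and to 52.9 to 65.3% and 40.4 to 52.0% at 18 h. Adgre1 stayed at 91.4 to 97.8% throughout and Csf1r at 88.8 to 100%, so their values changed mostly in tags per covered kb.

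**Figure D2:**
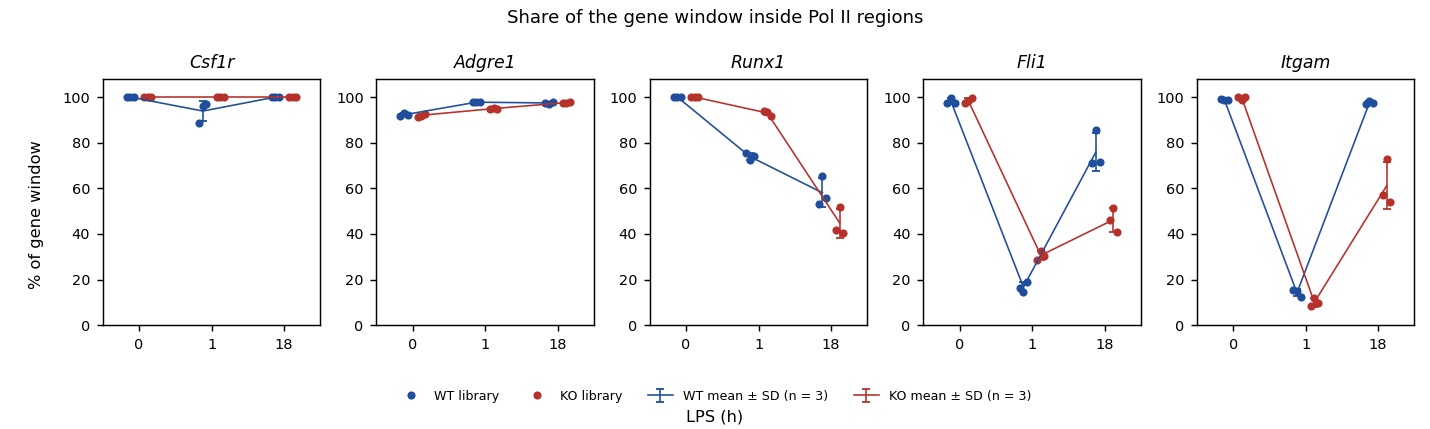
Share of the gene window that lay inside Pol II regions (y axis, %) at 0, 1 and 18 h of LPS (x axis, evenly spaced) for Csf1r, Adgre1, Runx1, Fli1 and Itgam. Points are libraries and lines join means ± SD of 3 WT (blue) or 3 KO (red) libraries. Fli1 and Itgam fell below 33% at 1 h, and at 18 h the KO libraries of both genes lay below all WT libraries.

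Close to the starts the picture differed. Within 500 bp of its start Itgam held 52.7, 45.1 and 61.6 normalized tags of Pol II in WT at 0 h, 15.5, 18.9 and 23.2 at 1 h, then 55.4, 42.6 and 41.8 after 18 h. KO libraries at 18 h held 52.1, 46.3 and 52.7 there, within 0.10 on the log2 scale of WT (adjusted p = 0.81), whereas over the gene they lay 2.24-fold lower. Fli1 at its start held 42.7, 45.1 and 50.1 in WT at 0 h and 30.5, 26.0 and 33.6 at 1 h, a far smaller change than over the gene. Runx1 at its distal start held 27.9, 32.2 and 32.9 in WT at 0 h and 67.2, 54.9 and 60.5 at 18 h, a rise of 0.79 (adjusted p = 9e-05), with 0.56 in KO (0.0018), against a fall over the gene. Adgre1 rose at its start as over the gene, from 90.0, 102 and 100.2 at 0 h to 419, 400.3 and 419 at 1 h in WT, and KO lay 0.25 below WT there at 1 h on the log2 scale (−0.25 ± 0.06), against −0.77 over the gene. A start value takes the mean density of the whole region it lies in, which at Runx1 shrank from 229 kb to a few kb. Start and body thus cannot be told apart at 0 h in that gene. The limit applies to Fli1 and Itgam too, since the share of each gene covered by regions changed with time and genotype. The part of region length in their start values was not tested. For the interaction at 18 h, Itgam stood at 0.11 by its start (adjusted p = 0.84) against −1.31 over the gene.

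H3K27ac at the gene starts, within 2500 bp to either side, followed LPS in the direction of Pol II for most members. The largest fall at 1 h in WT was that of Itgam, from 671, 801 and 660 normalized tags to 186, 173 and 207 (−1.86 ± 0.16, adjusted p = 1.2e-07). Runx1 fell from 695, 768 and 766 to 297, 280 and 262 (−1.38 ± 0.07, adjusted p = 4e-10) and Cebpa from 494, 495 and 520 to 217, 237 and 228 (−1.11 ± 0.09, 1.2e-07). None of these overlapped between the times. Adgre1 rose from 556, 630 and 581 to 1219, 1175 and 1201 (1.01 ± 0.20, adjusted p = 0.0004), and Spi1 from 979, 840 and 1021 to 1631, 1649 and 1837 (0.85 ± 0.22, 0.0036). At Spi1 the region that holds the start was 6.64 to 7.78 kb long in WT at 0 h and 24.9 to 25.6 kb at 1 h. At Cebpb the start held 395, 435 and 402 in WT at 0 h and 954, 896 and 977 at 18 h (1.18 ± 0.09, adjusted p = 4.2e-08), and its region grew from 6.36 to 7.90 kb to 18.5 to 18.9 kb. Cx3cr1 held 44.6, 52.1 and 35.8 at 0 h and was listed at 0 in all 6 libraries at 18 h.

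The mark and the polymerase are set side by side for 3 genes, chosen after their values were seen. At Csf1r in WT H3K27ac stood at 642, 729 and 670 at 0 h, 503, 428 and 428 at 1 h, then 882, 808 and 815 after 18 h, the last above the start (0.29 ± 0.11, adjusted p = 0.04) while Pol II was below it (−0.95). That rise of the mark was lost with quantile normalization (0.04, adjusted p = 0.79), with a replicate block (adjusted p = 0.053) and without replicate 2 (0.1) or 3 (0.19). At Cebpd H3K27ac fell at 1 h in WT, from 507, 500.3 and 584 to 327, 347 and 347 (−0.62 ± 0.15, adjusted p = 0.0027, but 0.058 without replicate 3), while Pol II did not pass the test there. At Runx1 H3K27ac regained 612, 596 and 592 at 18 h in WT after the low at 1 h, while Pol II over the gene fell further. At Spi1, Fli1 and Itgam the 2 measures had the same direction at 18 h in WT, but with all libraries only Pol II passed. H3K27ac was at 0.33, −0.22 and −0.30 (adjusted p = 0.21, 0.094 and 0.13) beside Pol II at 0.55, −0.97 and −0.41. All groups share 1 estimate of the spread. Without the 2 KO libraries that stood apart, the H3K27ac falls at Fli1 and Itgam passed (adjusted p = 0.014 and 0.0029 by limma). The Spi1 rise of the mark passed within 1000 bp of the start (0.55, adjusted p = 0.022) and without replicate 1 (0.44, 0.047). No test of mark against polymerase was made.

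**Figure D3:**
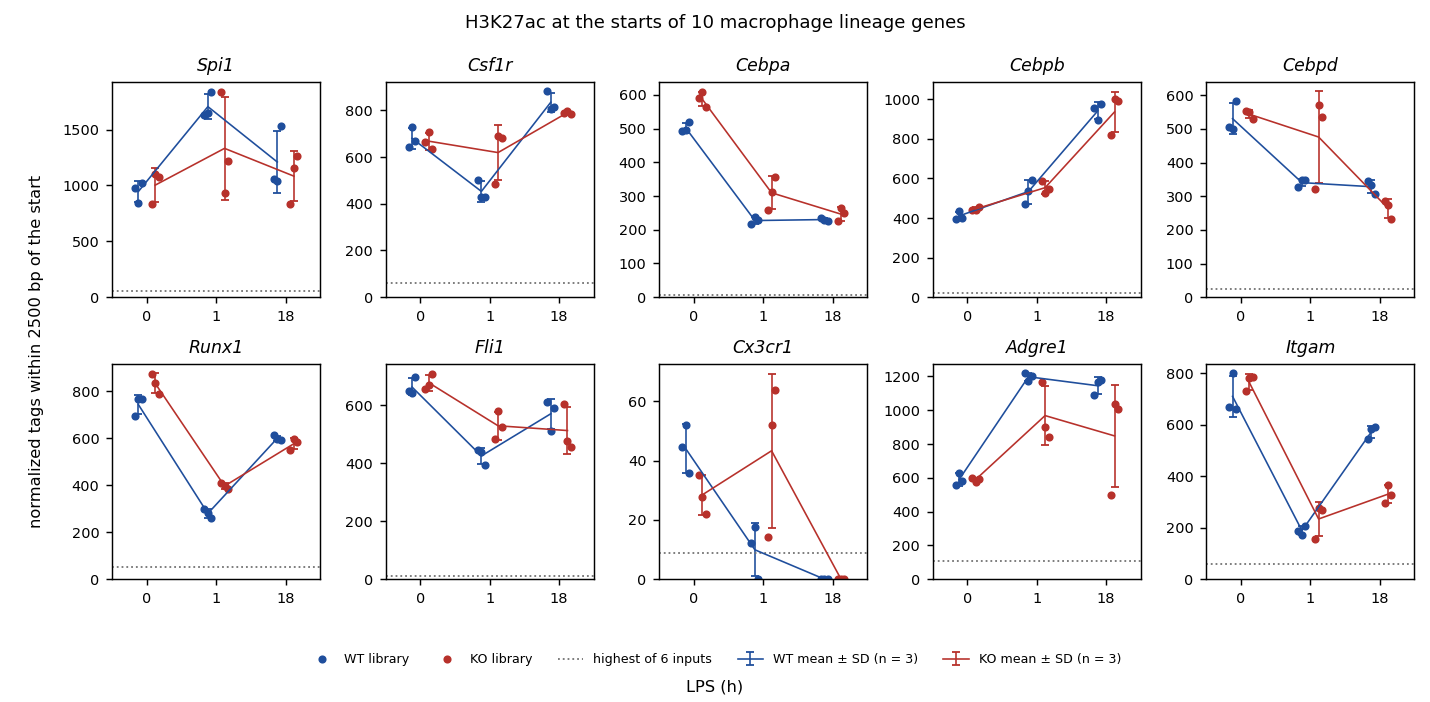
Normalized tags of H3K27ac within 2500 bp of each gene start (y axis; scales differ between panels) at 0, 1 and 18 h of LPS (x axis, evenly spaced). Points are libraries, lines join means ± SD of 3 WT (blue) or 3 KO (red) libraries, and the dotted line is the highest of the 6 inputs. At 1 h 1 KO library lay away from the other 2 at Spi1, Csf1r, Cebpd, Cx3cr1, Adgre1 and Itgam, and that was replicate 1.

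Over the members, 3 of 10 starts rose and 7 fell at 1 h in WT (25.6% and 29.2% of all starts tested), and 3 rose and 4 fell at 18 h (23.4% and 26.4%). In KO 2 rose and 4 fell at 1 h (20.5% and 26.3%), and 1 rose and 6 fell at 18 h (18.5% and 34.2%). Without the 2 libraries that stood apart, 7 were called in KO at 1 h (62.6% of all starts in either direction) and 9 at 18 h (68.2%). The WT counts move too, since all groups share 1 estimate of the spread. In WT 3 then rose and 7 fell at 1 h (3893 and 4502 of all 11883 starts). At 18 h 3 rose and 6 fell in WT (3751 and 4258 of 11760), as in KO.

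At 0 h limma called no start between genotypes, with 2 members at an unadjusted p under 0.05 (0.721% of all starts were called in either direction). At 1 h 5 were higher in KO and none lower (11.1% and 7.24% of all starts). These were Csf1r (485, 690 and 683 against 503, 428 and 428, 0.43 ± 0.11, adjusted p = 0.019), Cebpa (259, 313 and 357 against 217, 237 and 228, 0.42 ± 0.09, 0.0099), Runx1 (409, 396 and 385 against 297, 280 and 262, 0.49 ± 0.07, 0.00073), Fli1 (485, 580 and 524 against 444, 439 and 393, 0.31 ± 0.10, just under the threshold and over it under 10 of the alternatives) and Cx3cr1 (14.1, 52.1 and 63.8 against 12.2, 17.5 and 0, 1.39 ± 0.37, 0.02). Runx1, Cebpa and Fli1 had no overlap between genotypes. The Runx1 call was made at the distal start. Over every coding start of Runx1 the difference was 0.17 and did not pass (adjusted p = 0.13 by limma). Replicate 1 of KO was the lowest KO library at Csf1r, Cebpa, Fli1 and Cx3cr1. All 5 calls were lost without replicate 2 (adjusted p = 0.17 to 0.5) and without replicate 3 (0.16 to 0.48), fits that keep the KO library that stood apart. With both libraries that stood apart left out, 9 members were called at 1 h (59.9% of all starts), 7 higher in KO and 2 lower. All groups share 1 estimate of the spread in these fits, and without both libraries 1 member was also called at 0 h. The 2 lower ones were Spi1 (1841 in replicate 1, 937 and 1219 in the others, against 1631, 1649 and 1837 in WT, −0.67 ± 0.17) and Adgre1 (1167 in replicate 1, 899 and 839 in the others, against 1219, 1175 and 1201, −0.46 ± 0.06).

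At 18 h only Itgam was called between genotypes, with 296, 368 and 328 normalized tags of H3K27ac in KO against 545, 583 and 590 in WT (−0.78 ± 0.16, adjusted p = 0.012), and no start was higher in KO (2.28% of all starts were lower and 0.944% higher). The call was lost without replicate 2 (adjusted p = 0.16) or 3 (0.23). Without the 2 libraries that stood apart 3 were called (18.7% of all starts): Itgam (−0.70), Cebpd (−0.37) and Fli1 (−0.28). Itgam was thus lower in KO at 18 h in both the mark at its start and in Pol II over the gene, with no overlap in either. No interaction was called by limma at the starts, with 3 members at an unadjusted p under 0.05 at 1 h and 2 at 18 h (0.544% and 0.516% of all starts were called). Without the 2 libraries 9 were called at 1 h (47.8% of all starts) and 2 at 18 h (14.3%). The 9 at 1 h ranged from −0.74 for Spi1 to 2.39 for Cx3cr1, and the 2 at 18 h were Itgam (−0.82) and Cebpd (−0.40).

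**Figure D4:**
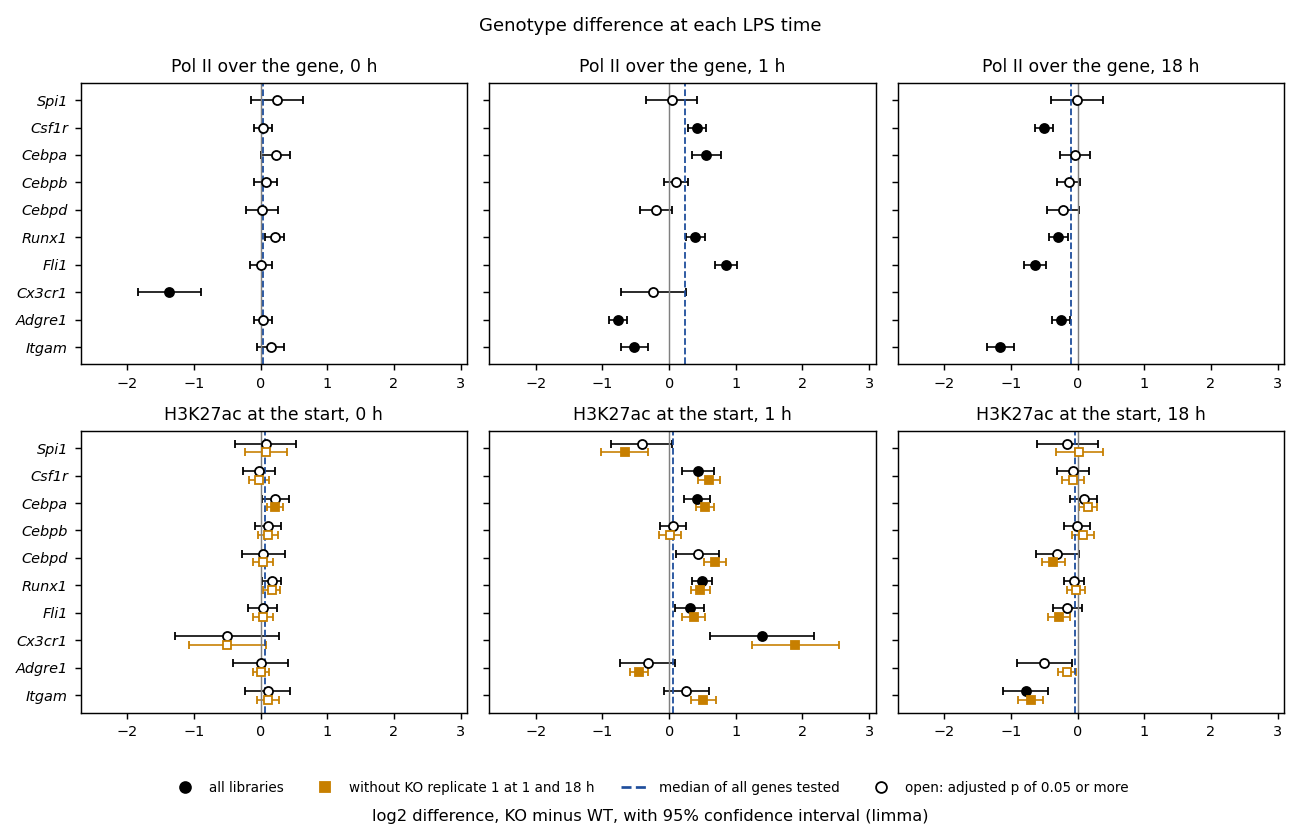
Log2 difference, KO minus WT, with its 95% confidence interval (x axis) for each gene (y axis) at 0, 1 and 18 h, for Pol II over the gene (top) and H3K27ac at the start (bottom). Circles use all libraries, squares leave out KO replicate 1 at 1 and 18 h, filled symbols passed an adjusted p of 0.05, and the dashed line is the median of all genes tested. Pol II differences at Fli1, Csf1r and Runx1 were above 0 at 1 h and below it at 18 h.

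The 100 H3K27ac regions within 50 kb of a start ranged from 5 for Cebpd to 16 for Cebpa, with 7 each for Spi1 and Csf1r, 9 for Cebpb, 10 each for Runx1, Fli1 and Adgre1, 11 for Itgam and 15 for Cx3cr1. They measured 0.5 to 48.5 kb (median 2.33 kb), 10 held a member's start and 5 the start of another gene only. In every library 41 were found, 15 in just 1 library, and 82 were tested in some comparison. A region was called at an adjusted p under 0.05 with a log2 change over 1 in size. At 1 h in WT 4 of 70 tested rose and 23 fell (15% and 25.9% of all regions), and at 18 h 7 of 71 rose and 17 fell (13.5% and 25.5%). The lower regions at the 2 times shared 13, which is 56.5% of those at 1 h and 76.5% of those at 18 h; both comparisons use the same 0 h libraries. In KO none of 74 rose and 17 fell at 1 h (10.6% and 16.7%), and 3 of 75 rose and 22 fell at 18 h (13.7% and 26.4%). Without the 2 libraries that stood apart 1 of 72 rose and 16 fell at 1 h (5516 and 7524 of all 44037 tested). At 18 h 4 of 72 then rose and 22 fell (6599 and 13115 of 45202). The members differed. Around Cebpb 4 regions rose at 18 h in WT and none fell, and around Cebpa none rose and 7 fell at each time. Around Runx1 6 fell at 1 h and 5 at 18 h.

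Large falls were seen at Cebpa and inside Runx1. A region 18.7 to 21.7 kb upstream of Cebpa, chr7:35097614-35100630, held 236, 265 and 246 normalized tags in WT at 0 h, 32.2, 21.4 and 21.8 at 1 h, then 7.98, 17.2 and 14.8 after 18 h. In KO it held 297, 267 and 266, then 31.7, 132 and 136, then 26.7, 10.5 and 5.09. The change at 18 h was −3.49 in WT against −3.67 in KO (adjusted p = 1.3e-06 and 7.6e-07). A region 21.2 to 27.9 kb downstream of the distal Runx1 start, chr16:92798270-92804907, held 558, 598 and 606 in untreated WT cells, 87.4, 69.5 and 80.7 at 1 h, then 86.5, 78.9 and 77.1 after 18 h. Its KO libraries held 630.5, 605 and 598, then 83.8, 244 and 252, then 111, 60.1 and 54.8, and its change at 18 h was −2.72 in WT against −2.92 in KO (adjusted p = 1.1e-06 and 5e-07). In both regions 2 of the 3 KO libraries at 1 h lay above all 3 of WT, and replicate 1 of KO lay with WT. A nearer one, 8.96 to 16.5 kb downstream (chr16:92809604-92817190), went from 90.9, 105 and 81.6 to 0, 7.13 and 0 in WT at 1 h (−3.09, adjusted p = 5.1e-06).

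Upstream of Runx1, chr16:92846807-92856215 at 20.7 to 30.1 kb held 348, 359 and 372 normalized tags in KO at 0 h and 95.1, 64.9 and 65 at 1 h (−2.14, adjusted p = 3e-07). In WT it held 257, 278 and 239 at 0 h, 81.1, 88.1 and 72.1 at 1 h, then 44.6, 47.0 and 48.5 after 18 h. A region farther out, chr16:92872040-92875220, also fell in KO at 1 h (−1.93, adjusted p = 0.00045). With a pseudocount of 50 its change was −0.75, under the size needed for a call.

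**Figure D5:**
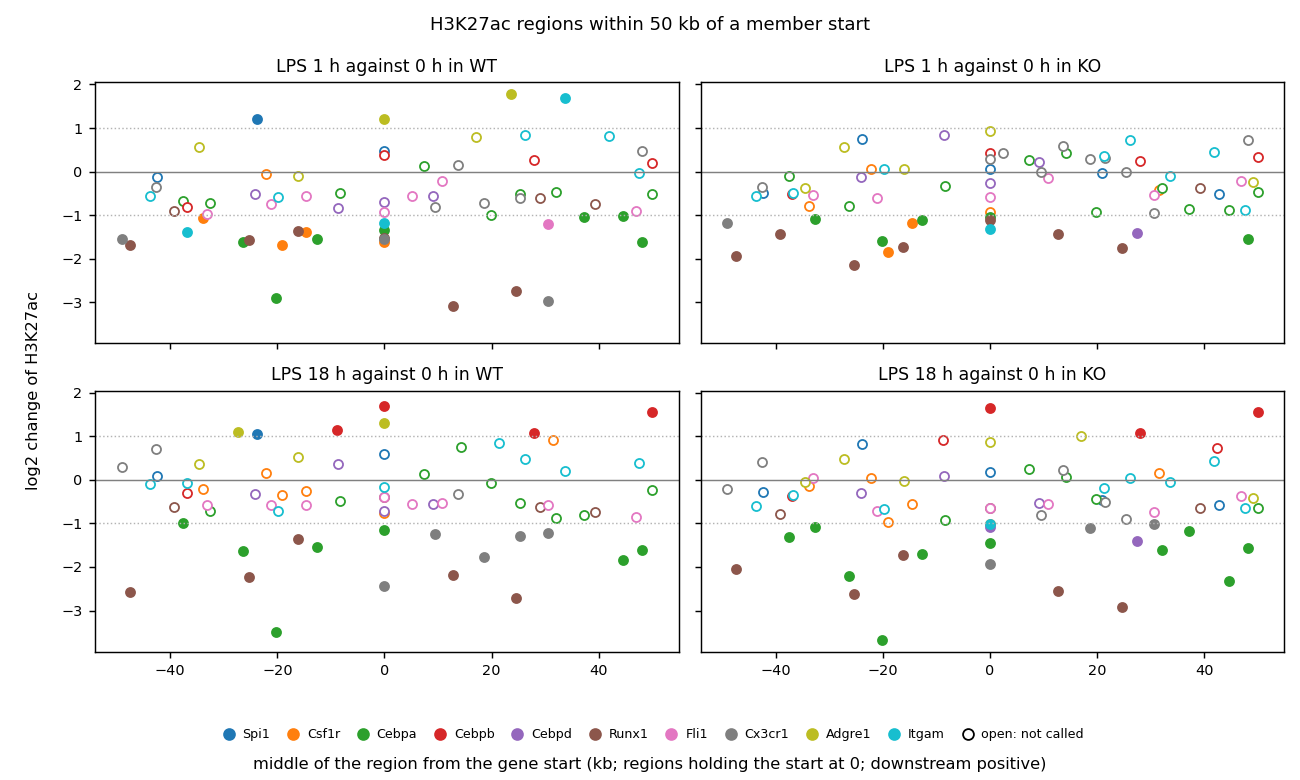
Log2 change of H3K27ac (y axis) in each tested region within 50 kb of a member's start, by the distance of its middle from the start (x axis, kb, downstream positive, regions holding the start at 0), at 1 h (top) and 18 h (bottom) in WT (left) and KO (right). Colours name the gene, filled points were called, and dotted lines mark a log2 change of 1 in either direction. The lowest points at 18 h are the region 18.7 to 21.7 kb upstream of Cebpa, at −3.49 in WT and −3.67 in KO.

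With all libraries, calls between genotypes were about as frequent at these regions as over all regions. At 0 h 1 of 74 was called (1.87% of all regions), and at 1 h 9 of 67 were higher in KO and 2 lower (9.7% and 4.45%). At 18 h limma called none of 60, where 3.7% of all regions were called. Of these 60, 14 had an unadjusted p under 0.05. Without the 2 libraries that stood apart 15 of 66 were called at 1 h (29.2%), 13 of them higher in KO. The interaction was called in 2 of 80 regions at 1 h and 1 of 79 at 18 h (3.11% and 1.63%), and without the 2 libraries in 15 of 80 at 1 h (25%). Among the regions higher in KO at 1 h, the one 29.2 to 31.9 kb downstream of the Cx3cr1 start, chr9:120036364-120039070, held 0, 0 and 12.9 normalized tags in WT and 27.9, 48.8 and 49.2 in KO at 1 h, after 83, 87.5 and 110 against 78.4, 95.3 and 91.2 at 0 h. Its difference was 1.95 ± 0.30 (adjusted p = 0.0005) and its interaction 2.02 ± 0.43 (0.013), and both were lost without replicate 2 (adjusted p = 0.085 and 0.35). A region 7.37 to 9.93 kb upstream of Cebpd, chr16:15877358-15879917, held 0, 0 and 7.9 in WT and 12, 57.1 and 69.3 in KO at 1 h (2.01 ± 0.43, adjusted p = 0.004), a call lost without replicate 2 (0.19) or 3 (0.1). Another, 26.8 to 28.1 kb downstream of Cebpd (chr16:15914049-15915348), was found mainly in KO at 0 h, with 16.7, 17.3 and 15.2 against 0, 0 and 6.31, and was listed at 0 in the other 12 libraries (1.16 ± 0.15, adjusted p = 9.9e-05). These are weak regions, and the KO libraries were the deeper ones; that part was not tested.

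Genes whose Pol II ran most like that of each member were sought among 7832 genes with a mean of 100 or more normalized tags, by Pearson r over the 18 Pol II libraries, which share groups and depth, so r is a description. Csf1r was most like BC005537 (0.996) and Cd300lb (0.994), and Cd300lb was also among the 2 most like Fli1 (0.993), beside Slc45a4 (0.995). Csf1r and Fli1 themselves ran together at 0.991. Runx1 was most like Dusp3 (0.994) and Fam78b (0.99), Cebpa most like Glcci1 (0.988) and Ttc28 (0.984), and Cebpb most like Gm45837 (0.993) and Gsr (0.989). Adgre1 was most like Slfn5 (0.989) and Rnf114 (0.986), Itgam most like Ctsa (0.992) apart from Gm49368, which overlaps it, and Cebpd most like C5ar2 (0.933) and Coro1a (0.932). Spi1 had the weakest likeness, 0.90 with Marcks and with Has1. Within the list, Cebpb and Runx1 ran oppositely (−0.93), as did Adgre1 and Runx1 (−0.90) and Cebpd and Cebpb (−0.89). Cx3cr1 was too low to compare.

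The members were set beside 3 lists of related genes. Of 24 partners and relatives of the factors (such as Irf8, Klf4 and Mitf), 22 were tested for Pol II at 1 h in WT, and 7 rose and 15 fell (18.6% and 67.8% of all genes), with a median log2 change of −0.59 against −0.81 over all genes. Mef2c fell from 4218, 4886 and 4945 normalized tags to 224, 210 and 197 (−4.41), and Tfec, a relative of Mitf, rose from 292, 334 and 332 to 5756, 5759 and 5764 (4.13). Of 13 growth factor receptors and ligands 11 were tested, and 6 rose and 5 fell (median 0.34). Csf1, which encodes the ligand of Csf1r, rose from 583, 625 and 614 to 4886, 4980 and 4978 (3.01), the opposite of its receptor, and Csf2 was listed at 0 in all 3 libraries at 0 h and held 299.9, 291 and 316 at 1 h. Of 24 surface and effector genes 23 were tested, and 5 rose and 14 fell (median −0.45). Trem2 fell from 1073, 1194 and 1251 to 17.4, 20.2 and 26.1 (−5.25), and Itgal, which encodes the CD11a chain that pairs with the same partner as CD11b, rose from 0, 0 and 6.33 to 614, 552 and 537.

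At 18 h in WT 8 of 21 partners rose and 11 fell, 2 of 10 receptors and ligands rose and 7 fell, and 4 of 23 surface genes rose and 14 fell (33.1% of all genes rose and 33.2% fell). Between genotypes at 18 h, the surface and effector genes had 4 of 22 higher in KO and 10 lower (median −0.22 against −0.10 over all genes), the partners 4 of 19 higher and 4 lower, and the receptors and ligands 1 of 8 higher and 2 lower (7.2% and 12.6% of all genes). At 1 h 11 of 19 partners were higher in KO and 3 lower (36.8% and 7.42% of all genes), with a median of 0.21 against 0.24. The interaction at 18 h was called lower for 10 of 23 surface genes and higher for 1 (9.33% and 4.67% of all genes), with a median of −0.37 against −0.14 over all genes.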

How the data were processed

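ChIP-seq libraries of Pol II (18), H3K27ac (18) and input (6) were grouped by the genotype and LPS time in their titles. Reads had been trimmed by the authors (Skewer), mapped to mm10 (HISAT2 2.1.0) and freed of duplicates, and HOMER was run on single libraries in its histone style, without an input control and without pooling replicates. Per the file headers, the search window was 500 bp, the Poisson threshold 0.001 and the stitching distance 1000 bp. The deposited signal is the normalized tag count of a region per 10 M tags. Whole tags could not be recovered from it, so no test on counts was run. The antibody catalogue number of Pol II differs between the label and the article and was not settled. Flow cytometry in the study found the cells positive for CD11b and F4/80.

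Gene positions came from the GENCODE annotation of GRCm38 (principal protein-coding transcript, 48 genes with duplicate symbols left out), and none of 2116158 regions lay past a chromosome end. For Pol II the gene with 500 bp added at either end was used, and for H3K27ac the 2500 bp to either side of the start, with regions shared out by overlap. H3K27ac regions were merged over libraries with bedtools 2.31.1. Such sums depend on the share of a locus that passed the search, and deeper libraries can show weaker regions.

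A pseudocount of 10 was added before taking log2, and limma 3.58.1 (R 4.3.3) was fitted over all genes or regions, testing those present in 2 or more libraries of either group, with 6 group means per antibody and a variance trend. Changes on this scale understate those of low values. For genes a call needed an adjusted p (Benjamini-Hochberg, over all genes) under 0.05, and regions also needed a log2 change over 1. The article names a Mann-Whitney U test for LPS fold enrichment and an analysis of variance for Pol II coverage. Neither was used here, where single genes were tested across all genes. The fit was tested on simulated data with 200 changed genes or regions. These data held only features found in every library, with independent noise. They therefore say nothing about values of 0 or about libraries that stand apart. Python 3.11.15, pandas 2.3.3, numpy 2.4.6 and matplotlib 3.10.9 were used.

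The members, lists and tests were chosen with earlier results of these data known. The rule named every member, Nr4a1 as a check, the 2 genes most like each member, the 2 list genes with the largest Pol II change at 1 h in WT, and per comparison the 2 called regions with the largest change whose groups did not overlap. The principal transcript was chosen after the whole gene records were seen to take in other genes, as for Cx3cr1. The whole record, and Pol II without WT replicate 1 at 0 h, are alternatives added after the data were seen. Other alternatives were pseudocounts of 1 and 50, quantile and median scaling, input subtraction, a density floor, other windows, regions found in every library, a replicate block and leaving out replicates.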

Additional observations from a re-analysis of the deposited data

Results flagged for a closer look

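The LPS change of Pol II differed between KO and WT at these members, by the interaction term of limma. At 1 h the interaction was 0.38 for Csf1r (change −1.99 in KO, −2.37 in WT), 0.85 for Fli1 (−2.19 and −3.03), −0.81 for Adgre1 (1.44 and 2.25) and −0.68 for Itgam (−4.13 and −3.45). That of Itgam rests on values at 1 h at or under the highest input and was lost with inputs subtracted (adjusted p = 0.36), and that of Csf1r was lost without replicate 2 or 3. At 18 h it was −0.55 for Csf1r (−1.50 and −0.95), −0.51 for Runx1 (−2.003 and −1.50), −0.65 for Fli1 (−1.63 and −0.97), −0.29 for Adgre1 (2.22 and 2.51) and −1.31 for Itgam (−1.72 and −0.41). The median over all genes was 0.17 at 1 h and −0.14 at 18 h. At 18 h that of Adgre1 was lost without any single replicate (adjusted p = 0.19, 0.15 and 0.11). That of Runx1 was lost without replicate 3 (0.051) and with inputs subtracted (−0.11, adjusted p = 0.47). Within 500 bp of the start no interaction was called at 1 or 18 h. Those of Cx3cr1, 1.13 at 1 h and 1.37 at 18 h, come from values under the highest input and were lost with a pseudocount of 1 (adjusted p = 0.56 and 0.29).

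Among H3K27ac regions, the interaction was −1.16 at both 1 h and 18 h for the region 26.8 to 28.1 kb downstream of Cebpd, which was listed at 0 in all libraries after LPS, and 2.02 at 1 h for the region 29.2 to 31.9 kb downstream of the Cx3cr1 start. The 2 values of the Cebpd region are therefore its KO minus WT difference at 0 h (1.16) with the sign turned, and not separate observations. All 3 interactions were lost without replicate 2 (adjusted p = 0.17, 0.16 and 0.35).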

How the results depend on the processing

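Counts of members called under other settings are given for KO against WT unless a comparison is named. Pol II within 500 bp of the start called 0, 2 and 2 members at 0, 1 and 18 h (1, 6 and 5 over the gene) and 0 interactions at 1 and 18 h (5 and 6), median centring 2 at 0 h and 3 interactions at 1 h, and a pseudocount of 1 or the whole gene record 0 at 0 h. Without the 2 H3K27ac libraries that stood apart the starts called 1, 9 and 3 (0, 5 and 1 with all) and 9 and 2 interactions (0 and 0), and the regions 3 at 18 h and 15 interactions at 1 h. Starts found in every library called 3 at 1 h.

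For regions (1, 11 and 0 at 0, 1 and 18 h; LPS at 1 and 18 h 27 and 24 in WT, 17 and 25 in KO; interactions 2 and 1), an adjusted p alone gave 23 at 1 h, 5 at 18 h, 52 and 46 in WT, 38 and 45 in KO and 4 interactions at 1 h. Found in every library: 0 and 4 at 0 and 1 h, 14 in WT at 18 h, 11 and 15 in KO, 0 interactions. Within 20 kb: 0 and 4, 13 and 12 in WT, 9 and 12 in KO, 0 interactions. A pseudocount of 50: 0 and 0, 13 and 10 in WT, 7 and 11 in KO, 0 interactions. Input subtraction gave 3 at 18 h and 4 and 6 interactions, quantile scaling 0 at 0 h, 1 at 18 h and 1 and 0 interactions, and a density floor or a pseudocount of 1 gave 1 at 18 h.

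Leaving out 1 replicate gave ranges of 1 to 2 for Pol II at 0 h and 3 to 4 interactions at 1 h. For starts they were 0 to 9 at 1 h, 0 to 2 at 18 h, 4 to 10 for LPS at 18 h in WT, 3 to 7 at 1 h in KO, and 0 to 9 and 0 to 1 interactions. For regions they were 1 to 2, 0 to 18 and 1 to 2 at 0, 1 and 18 h and 0 to 17 and 0 to 2 interactions. Directions turned by the start window were Csf1r at 1 h (−0.16, interaction −0.20), Runx1 under LPS (0.79 in WT at 18 h, 0.12 and 0.56 in KO at 1 and 18 h), Fli1 at 1 h in KO (0.021) and Itgam (0.056 and 0.10 at 1 and 18 h, interactions 0.069 and 0.11). Median centring turned Cebpd at 1 h (0.77 in WT, 0.32 in KO), input subtraction Runx1 at 18 h (0.086), and quantile scaling Cx3cr1 at 1 h in KO (0.010). The whole record, which holds other genes, turned Cx3cr1 (0.38 at 1 h, LPS 3.22 and 0.74 in WT, 3.80 and 0.98 in KO). The cause was not tested.

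Replicate numbers did not pair the libraries (correlation of deviations −0.08 to 0.11 for Pol II and −0.43 to 0.08 for H3K27ac), and a replicate block left the Pol II counts at 1, 6 and 5, with 5 and 6 interactions, and gave 4 starts at 1 h. Of 2910 comparisons of single genes or regions with an alternative, 2706 kept direction and call. In the rest, 121 lost their call, 64 gained a call and 19 turned direction. The 500 bp start window accounted for 18 of the lost calls and 10 of the turns. Leaving out replicate 2 or 3 lost 23 and 21 calls. Of 414 counts of members called under an alternative, 81 moved.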
